A study of Mus musculus with 14 samples.

Results

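The CpG sites that lie in a gene promoter and in a CpG island at the same time were followed in mouse mammary adipose tissue. They were the rows on chromosomes 1 to 19 that the authors' table flags both as promoter and as CpG island, and there were 9408 of them among the 75761 sites of the table, or 12.4%. They belonged to 3524 gene symbols, and 9406 of the 9408 sit at the C of a CpG in mm10. A further 995 promoter-island rows on chromosome X were not included. Of the 9408 sites, 6966 varied enough across the mice to be tested (SD of at least 0.05 on a scale from 0 to 1), and 2442 did not, so the tests below say nothing of those.

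The tissue was the contralateral mammary fat pad of 14 female wild-type C57BL/6N mice, which had arrived at 8 weeks of age and had all been injected with E0771 mammary cancer cells in the opposite pad 4 weeks earlier. The 3 CON-LFD mice ate a 10% fat diet throughout. The others ate a 60% fat diet for 15 weeks, after which the 4 DIO-HFD mice stayed on it, the 3 DIO-LFD mice were switched to the 10% fat diet, and the 4 DIO-VSG mice underwent vertical sleeve gastrectomy and were given the 10% fat diet. Mice without the gastrectomy had sham surgery, so every mouse had been operated on and injected with tumor cells. The labels name a mammary cancer cell type, which is the injected line, whereas the tissue measured was the pad on the other side. The study asked whether losing weight by diet or by surgery changes what obesity leaves in this tissue.

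CpG islands are stretches of DNA where the dinucleotide CG has been kept at high density, and they cover the start of most housekeeping genes and of many developmental regulators. In most adult tissues they are largely free of methylation, and their methylation accompanies stable silencing on the inactive X chromosome, at imprinted genes and at germline genes. Reduced representation bisulfite sequencing (RRBS) cuts DNA with MspI, which recognizes CCGG, and reads the short fragments after bisulfite conversion, so that every fragment runs from one CCGG to another. The level of a site is the methylated share of its reads, given here in percent. In bulk tissue a lower level in every cell and a smaller share of methylated cells cannot be told apart.

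The sequences in which the levels were read are shown first, since whether a site lay inside a CCGG turned out to separate the levels more than any group of mice did. All are from mm10 and are written on the strand of the gene. The first 4 are stretches of promoter in which both kinds of site were measured, and the capitals mark the CCGG and each measured CG outside it.
Scmh1, chr4:120405699-120405742, plus strand: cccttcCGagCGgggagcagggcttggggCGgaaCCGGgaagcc
Osbpl6, chr2:76406727-76406748, plus strand: ttgccgCGcggcCCGGgggcat
Kdm2a, chr19:4398380-4398423, minus strand: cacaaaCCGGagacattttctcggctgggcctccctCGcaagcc
Gata2, chr6:88194338-88194376, plus strand: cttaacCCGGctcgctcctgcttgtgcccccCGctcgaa

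The next 4 run from one CCGG to the next one in the genome, with the 2 measured sites in capitals at the ends.
Fxr1, chr3:34020233-34020385, plus strand: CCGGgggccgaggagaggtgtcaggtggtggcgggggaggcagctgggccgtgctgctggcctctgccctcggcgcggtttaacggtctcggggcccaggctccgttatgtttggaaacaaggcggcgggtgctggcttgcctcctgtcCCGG
Rpl19, chr11:98027126-98027292, plus strand: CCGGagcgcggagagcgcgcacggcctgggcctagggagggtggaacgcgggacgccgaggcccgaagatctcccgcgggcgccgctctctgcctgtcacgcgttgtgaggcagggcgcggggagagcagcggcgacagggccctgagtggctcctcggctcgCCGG
Cebpb, chr2:167688647-167688779, plus strand: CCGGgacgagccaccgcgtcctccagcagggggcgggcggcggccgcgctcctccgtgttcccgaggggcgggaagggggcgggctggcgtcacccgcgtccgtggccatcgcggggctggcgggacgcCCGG
Metap1, chr3:138489048-138489153, minus strand: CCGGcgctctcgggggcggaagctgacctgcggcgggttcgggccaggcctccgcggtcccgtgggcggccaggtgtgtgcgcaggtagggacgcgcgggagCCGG

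The last 4 surround single CCGG sites whose levels separated groups of mice, with the CCGG in capitals.
Ctnnb1, chr9:120933356-120933385, plus strand: gggactactttccCCGGcccgcccgcgccc
Tmem9b, chr7:109752206-109752235, minus strand: gccggatcccgagCCGGgcgcggggctcgg
Nkiras1, chr14:18271324-18271353, plus strand: gttggtgtttccaCCGGcgcctcgctccgt
Tanc2, chr11:105589983-105590012, plus strand: tcgcgctcacctcCCGGctgtgccgcgcgc

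The promoters of these genes were dense in CG. The 300 bp around a member site held a median of 29 CG dinucleotides and 4 CCGG, with 68.5% G and C and an observed-to-expected CG ratio of 0.839, and 91.7% of members had over 50% G and C with a ratio over 0.6. For the 8943 promoter sites outside islands the corresponding medians were 57.6% and 0.447. The median member lay 134 bp after the transcript start, 3082 (32.8%) lay before it, and 53.1% were in exons and 39.6% in introns. RefSeq promoters (GRCm38.p6, 250 bases before to 50 after the start) were found for 2483 of the 3524 symbols. Of their 3321 promoters, 87.2% held CCGG, 71.5% held GGGCGG, the GC box, and 6.29% held TATAAA, against 53.0%, 35.9% and 13.6% of all 32544 promoters (both strands were searched, and matches of CCGG and GGGCGG can share bases). CCAAT was found in 32.8% against 37.4%. These matches describe letters in a window and not binding.

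One mouse stood apart before any comparison. The level at members outside CCGG was 32.5% in DIO-HFD 1 and from 21.2% to 25.8% in the other 3 DIO-HFD mice, whereas the 10 mice of the other groups lay between 24.6% and 31.0%. DIO-HFD 1 was thus the highest of the 14 and its 3 group mates were among the 4 lowest, with CON-LFD 3 at 24.6% between them. The files hold nothing that checks the label of this mouse, and a label error and a mouse that differs from its group cannot be told apart here. Counts past the adjusted threshold, the mean member level and tests of named members against DIO-HFD are given with and without DIO-HFD 1 below. Unadjusted counts and group means inside and outside CCGG are given with all mice only. Because DIO-HFD 1 was picked by its level in these data, every p-value without it depends on that choice. The table holds no read counts, so the depth per site is unknown, and the p-values measure only the spread between these mice.

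Among the sites of the table, levels were in the middle of the scale. The authors state that they removed bases of low variability, so sites with a stable level in all mice may be missing. Yet 2442 members with an SD under 0.05 remain. The levels and shares here and below describe the members of the table and not every CpG of these promoters. The median member was methylated at 46.6% over the 14 mice (quartiles 30.5% and 55.2%), 4607 members (49.0%) lay between 40% and 60%, 857 (9.1%) lay under 10%, and 87 (0.9%) lay over 90%. In single mice the share under 10% ran from 8.16% to 14.2% and the share over 90% averaged 1.91%. The mean of all members, 43.0%, was below that of promoters outside islands in each of the 14 mice, with a mean gap of -7.99 points (SD 1.88; exact sign-flip permutation p = 0.000122 over the 14 mice, the smallest it can give). It was below that of islands away from promoters in 12 of 14 mice, with a gap of -2.01 points (SD 1.73, exact sign-flip permutation p = 0.00195), with DIO-HFD 2 and DIO-HFD 4 the exceptions. These gaps pool sites inside and outside CCGG, whose shares differ between the classes. Inside CCGG the means over the 14 mice were 49.6% for members, 56.9% for promoters outside islands and 54.1% for islands away from promoters. Outside CCGG they were 27.9%, 46.4% and 41.9%. Within each kind of site, members were below islands away from promoters in DIO-HFD 2 and DIO-HFD 4 as well.

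The middle levels were those of CCGG sites. Of the 9408 members, 6535 (69.5%) were the inner CG of a CCGG, against 43.8% of promoter sites outside islands and 25.8% of island sites away from promoters. Members inside CCGG had a median level of 49.7% (quartiles 42.4% and 56.9%), with 62.5% of them between 40% and 60% and 1.4% under 10%. The 2873 members outside CCGG had a median of 20.2% (quartiles 9.5% and 44.2%), with 18.3% between 40% and 60% and 26.6% under 10%. The gap between the mean of the first and of the second was 21.7 points (SD 3.32) and ran from 17.7 in DIO-HFD 1 to 28.4 in DIO-HFD 2, above 0 in 14 of 14 mice (exact sign-flip permutation p = 0.000122). The plot of level classes shows both distributions on the same axis.

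**Figure D1:**
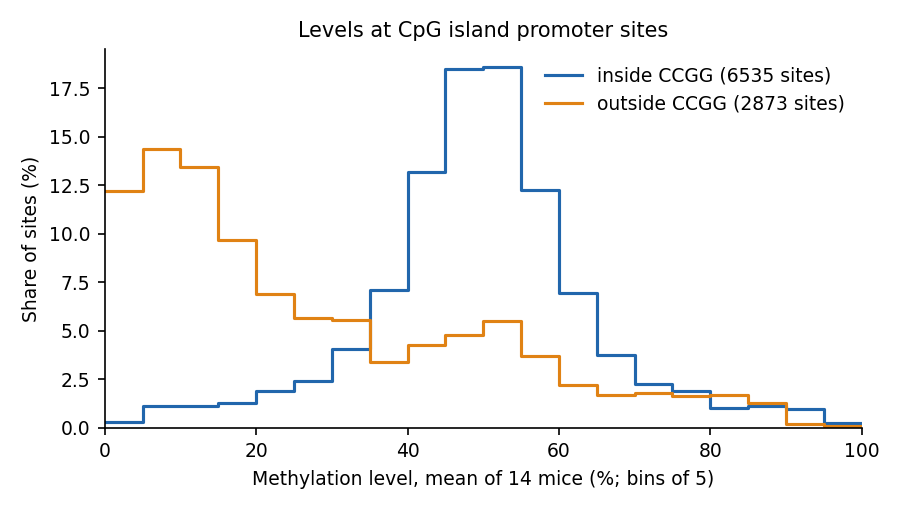
Share of members (percent) in classes of 5 points of the mean level over 14 mice, drawn as 2 lines for the 6535 members inside CCGG and the 2873 outside. Members inside CCGG pile up around a median of 49.7%, and those outside around a median of 20.2% with a long tail to higher levels.

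The same gap was seen within single promoters. In 608 genes both kinds of member were measured, and the CCGG members were higher in 528 of them (86.8%), with medians of 50.9% and 15.9%. In 423 pairs no further than 50 bp apart, at a median distance of 10 bp, the CCGG member was higher in 402 (95%), with medians of 54.6% and 14.1%. The stretches shown above are of this kind. In Scmh1, a Polycomb group gene, the CCGG stood at 45.2% and the 3 CG within the 44 bp at a mean of 2.56%. In Osbpl6, an oxysterol-binding protein gene, the CCGG stood at 44.4% and a CG a few bases away at 1.56%. In Kdm2a, which encodes a histone demethylase that binds unmethylated CpG, the values were 69.7% and 8.37%. In Gata2, a hematopoietic transcription factor that also restrains adipocyte differentiation, they were 46.3% and 8.29%. The cause of the gap was not tested.

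The gap was present at every distance from the start. In windows of 250 bp across the promoters, the mean of CCGG members ran from 48.8% to 51.5%, and the gap to the others varied with the level outside CCGG. Outside CCGG the mean was lowest just after the start, at 25.8% from 0 to 250 bp, where CCGG members had 49.2%. It was highest, at 34.7%, from 750 to 500 bp before the start, where CCGG members had 50.3%. Members before the start were above those after it by 0.559 points (SD 0.251), in 14 of 14 mice.

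Neighbouring CCGG members added up to about 100%. Both ends of the stretch between 2 consecutive CCGG of the genome were measured in 2163 member pairs of 1589 genes, at a median spacing of 122 bp. The sum of the 2 levels had a median of 98.4% (quartiles 96.2% and 101.1%), and 1725 pairs (79.8%) summed to between 90% and 110%. The median sum ran from 98.1% to 99.4% in single mice. When one end was high in a mouse, the other was low. The correlation of the 2 ends over the 14 mice was below 0 in 1937 pairs (89.6%), with a median of -0.84, and the SD over mice was 5.91 points for one end and 3.52 for the sum. As a comparison, the 607 pairs that skip 1 CCGG had a median correlation of 0.003, an SD of the sum of 8.41 points, and 44.6% of sums between 90% and 110%. These correlations describe pairs that share libraries and, in the first kind, fragments.

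**Figure D2:**
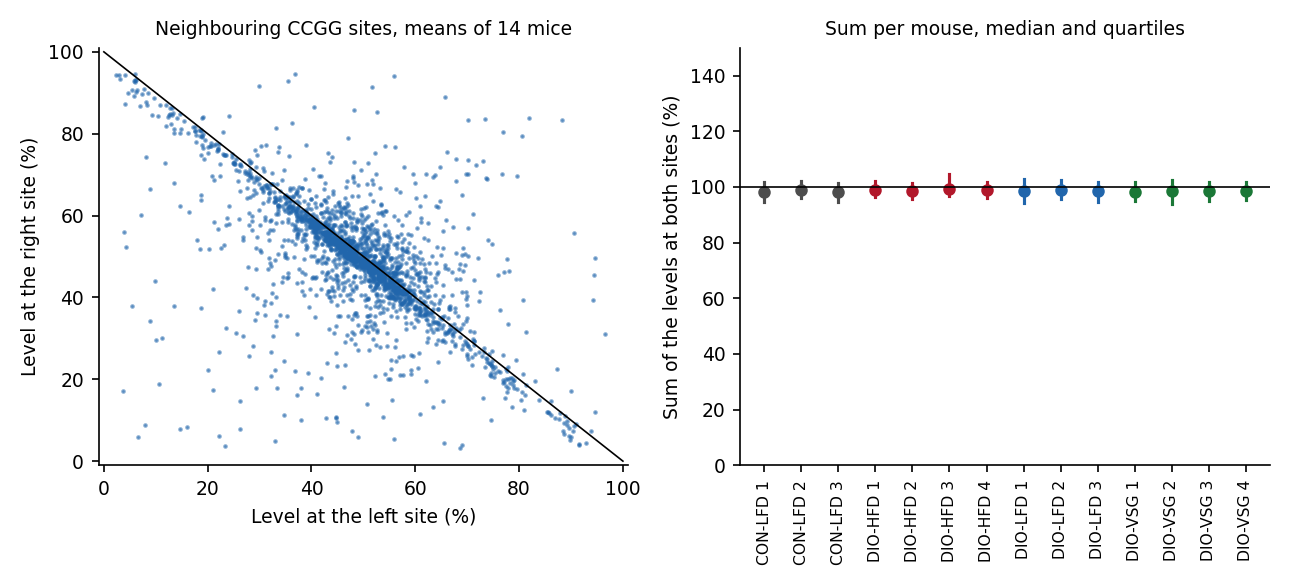
Left, level (percent, mean of 14 mice) at the right against the left CCGG of each of 2163 neighbouring member pairs, with the line on which both add to 100%; right, median (point) and quartiles (bar) of the sum in each mouse. Most points lie along the line, and the median sum of every mouse is between 98.1% and 99.4%.

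Cebpb, the adipogenic transcription factor C/EBPβ, showed the pattern away from the middle of the scale. Its left CCGG (chr2:167688648) stood at 72%, 70.7% and 78.6% in CON-LFD, 100%, 82.2%, 96.5% and 100% in DIO-HFD, 82.8%, 97.1% and 82.8% in DIO-LFD, and 81.1%, 80.8%, 98.8% and 82.6% in DIO-VSG mice 1 to 4. Its right CCGG, 129 bp on, stood at 23.8%, 24.1% and 17.6%, then 1.9%, 13.7%, 0.0% and 2.2%, then 13.1%, 0.0% and 11.8%, then 16.8%, 16.0%, 2.6% and 14.6% in the same order. The mice high at one end were low at the other, the sum was 97.4% ± 2.55 (SD, n = 14), and r was -0.98. In Rpl19, a ribosomal protein gene, the left end ran from 28.2% to 49.4% and the right from 50.6% to 70.8%, with a sum of 99.4% ± 1.54 (SD, n = 14) and r of -0.97, while its next pair, which shares the right end, summed to 106.3%. Foxa1, a pioneer factor of the luminal mammary epithelium, had 3 pairs in a row, with sums of 100% ± 2.49, 115.1% ± 3.42 and 96.2% ± 2.06 (SD, n = 14). In the first of them the left end was lowest, at 32.7%, in CON-LFD 1, where the right was highest, at 65.8%. The 2 pairs of Znrf3, an inhibitor of Wnt signaling, summed to 98.5% and 94.1% with r of -0.99 and -0.87, and those of Kdm2a to 100.2% and 91.8% with r of -0.99 and -0.19.

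The sum rose with the level between the ends. In 156 member pairs sites outside CCGG were also measured between the ends. Where those sites had under 10% (62 pairs, median 6.04%), the ends summed to a median of 101.8%, and where they had 10% to 25% (63 pairs, median 13.6%), to 102.4%. The sum was 130.3% in the 20 pairs whose inner sites had a median of 35.2%, and 144.0% in the 11 pairs with 56.8%. The same order held outside promoter islands, where the median sum was 102.0% for islands away from promoters, 107.5% for promoters outside islands and 144.6% for the remaining sites. What makes the 2 ends complementary was not tested.

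Not every pair added to 100%. Metap1, which removes the first methionine of new proteins, had a sum of 68.2% ± 28.3 (SD, n = 14). Its right end (chr3:138489151) was at 28.9%, 39.6% and 36.6% in CON-LFD and 44.7%, 38.3%, 52.5% and 46.8% in DIO-HFD mice, against 0.0%, 34.8% and 0.0% in DIO-LFD and 0.0%, 2.3%, 0.0% and 0.0% in DIO-VSG mice. Its left end was at 47.2%, 54.2% and 32.5% in CON-LFD, 51.9%, 58.1%, 47.5% and 45.7% in DIO-HFD, 41.2%, 52.9% and 30% in DIO-LFD, and 23.5%, 23.8%, 57.1% and 64.3% in DIO-VSG mice. Of the 6 mice whose right end was at or near 0, DIO-VSG 4 was above the CON-LFD and DIO-HFD mice at the left end, and DIO-LFD 3, DIO-VSG 1 and DIO-VSG 2 were below them. The pairs of Strip2 and Nkiras1 had mean sums of 67.0% and 75.1%, and 1 of their ends was likewise at or near 0 in several mice. Ctnnb1 had 4 pairs, with mean sums of 53.8%, 118.4%, 90.8% and 90.1%, and the first of them holds the site shown above.

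Some CCGG members took a middle level in some mice and an extreme one in others. Of the 6535, 475 (7.27%, in 413 genes) were at 35% to 65% in at least 1 mouse and at 5% or less in at least 1 other, and 374 (5.72%, in 332 genes) were at 35% to 65% in some and at 95% or more in others. Outside CCGG there were 71 (2.47%) and 9 (0.313%). The extreme values were unevenly spread over the mice. Of the 475, 223 were at 5% or less in DIO-VSG 2, 184 in DIO-LFD 3 and 84 in DIO-LFD 2, and between 9 and 68 in each of the other 11 mice. Of the 374, 143 were at 95% or more in DIO-VSG 2, 123 in DIO-LFD 3 and 82 in DIO-LFD 2, and between 8 and 45 in the others. The 3 mice belonged to the 2 groups that lost weight, but so did 4 of the 11 others, and the mice that led the count differed from DIO-HFD 1, the mouse that stood apart in the mean level. The 3 mice also led over all 6535 CCGG members. Levels of exactly 0% and exactly 100% made up 3.92% and 2.37% in DIO-VSG 2, 3.64% and 2.23% in DIO-LFD 3, and 2.62% and 1.94% in DIO-LFD 2. In the other 11 mice these shares were 0.505% to 1.70% and 0.122% to 1.04%. The depth per site is unknown, and whether few reads gave such levels was not tested.

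**Figure D3:**
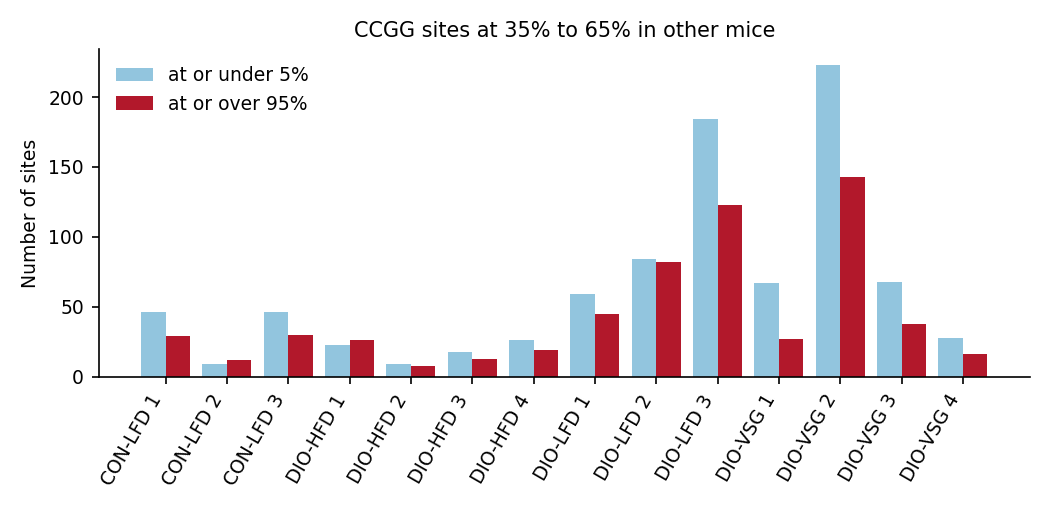
Number of CCGG members at 5% or less (of 475) and at 95% or more (of 374) in each of the 14 mice, among members that were at 35% to 65% in at least 1 other mouse. DIO-VSG 2, DIO-LFD 3 and DIO-LFD 2 have the highest counts at both ends of the scale.

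Fxr1, an RNA-binding paralog of the fragile X protein, gave both extremes in 1 fragment. Its CCGG at chr3:34020234, 128 bp after the start and intronic, stood between 42.5% and 56.2% in the 7 CON-LFD and DIO-HFD mice, at 48.6%, 47.8% and 0.0% in DIO-LFD, and at 45.8%, 100%, 100% and 40.6% in DIO-VSG mice. The next CCGG, at 34020383, stood between 43.5% and 52.5% in the 7 mice, at 47.2%, 50% and 100% in DIO-LFD, and at 50%, 0.0%, 40.7% and 50% in DIO-VSG mice. DIO-LFD 3 and DIO-VSG 2 thus held opposite values at both ends. Both mice also had the most levels of exactly 0% or 100% over all CCGG members, and the depth at each site is unknown. These sites had been chosen from earlier results of the same data and are given without a test.

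The mean level over all members did not separate the groups. It was 43.2%, 44.0% and 41.6% in CON-LFD mice, 44.8%, 41%, 43.0% and 41.7% in DIO-HFD mice, 43.7%, 42.9% and 42.5% in DIO-LFD mice, and 43.4%, 43.2%, 43.5% and 43.6% in DIO-VSG mice. All 4 groups overlapped, and the DIO-VSG mice lay closest together. Set against DIO-HFD, CON-LFD mice differed by 0.283 points, DIO-LFD mice by 0.393 and DIO-VSG mice by 0.779 (two-sided exact permutation p = 0.857, 0.743 and 0.343), and DIO-VSG was 0.386 points above DIO-LFD (two-sided exact permutation p = 0.343). Without DIO-HFD 1 they were 1.02, 1.13 and 1.51 points (two-sided exact permutation p = 0.300, 0.300 and 0.0571). The DIO-VSG mice then lay above all 3 remaining DIO-HFD mice, and 0.0571 is the smallest p for those numbers. With all mice the smallest p these tests can give is 0.0571 for 3 mice against 4 and 0.0286 for 4 against 4. Over the 16 tests of mean levels and gaps, the lowest Benjamini-Hochberg adjusted p was 0.533.

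**Figure D4:**
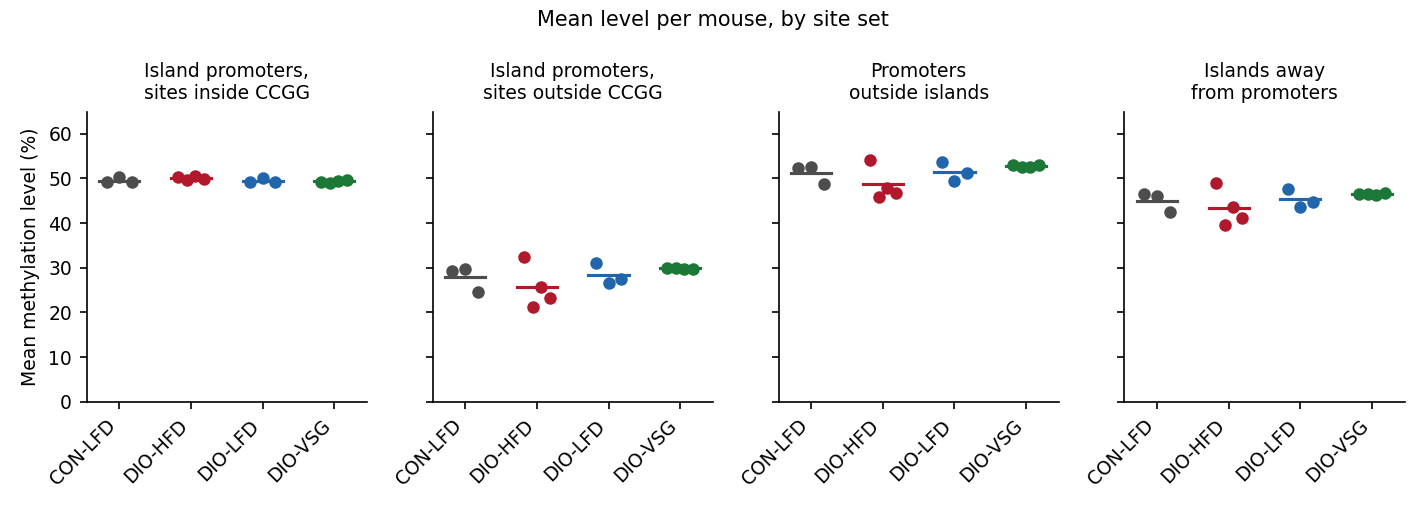
Mean level (percent) of each mouse (point) and of each group (line) for members inside CCGG, members outside CCGG, promoters outside islands, and islands away from promoters. Inside CCGG all mice lie between 48.9% and 50.6%, and outside CCGG DIO-HFD 1 lies at 32.5% and the other DIO-HFD mice at 21.2% to 25.8%.

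The spread between mice came from members outside CCGG. Inside CCGG the mean was 49.5% ± 0.62 in CON-LFD, 50.1% ± 0.43 in DIO-HFD, 49.5% ± 0.51 in DIO-LFD and 49.4% ± 0.34 in DIO-VSG mice (SD, n = 3, 4, 3 and 4). Outside CCGG it was 27.9% ± 2.89, 25.7% ± 4.92, 28.4% ± 2.35 and 29.9% ± 0.13. The 2 kinds differed in the direction of the group order between DIO-VSG and DIO-HFD: the difference was -0.725 points inside CCGG, and outside it had the opposite sign. Inside CCGG, DIO-HFD 2 to 4 were at 49.6%, 50.6% and 49.8%, and DIO-HFD 1 lay among them at 50.3%. The gap between members and promoters outside islands differed by -3.32 points between DIO-VSG and DIO-HFD mice (two-sided exact permutation p = 0.0857), and by -4.41 points without DIO-HFD 1 (two-sided exact permutation p = 0.0571, the smallest it can give). This gap pools both kinds of site, whose shares differ between the 2 classes. Promoters outside islands were at 57.5% in DIO-VSG and 56.1% in DIO-HFD mice inside CCGG, and at 49.1% and 42.9% outside it. With all mice 0 of the 16 tests passed the threshold of 0.05.

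Site by site, 1 member passed. With the 4 groups in 1 limma model and Benjamini-Hochberg adjustment over all 65610 tested sites, 0 of 6966 members were past an adjusted p of 0.05 between CON-LFD and DIO-HFD mice (0.0% of all sites), 1 between DIO-LFD and DIO-HFD (0.00305% of all sites), 1 between DIO-VSG and DIO-HFD (0.00305%), and 0 between DIO-VSG and DIO-LFD (0.00305%). At an unadjusted p under 0.05 there were 273 (3.92% against 7.76% of all sites), 494 (7.09% against 10.1%), 897 (12.9% against 25%) and 338 (4.85% against 3.98%), in the same order. Members were therefore less often under that p than the whole table in the 3 comparisons with DIO-HFD, a description with no test of the shares. Between DIO-VSG and DIO-HFD, 579 members were higher in DIO-VSG (8.31% against 20.2% of all sites) and 318 lower (4.57% against 4.85%). Inside CCGG 112 of 4646 were higher and 199 lower, with a median difference in M, the log2 ratio of methylated to unmethylated share, of -0.03. Outside CCGG 467 of 2320 were higher and 119 lower, with a median of 0.49. These were 20.1% and 5.13% of the members outside CCGG, near the shares of all sites, against 2.41% and 4.28% of those inside. In this comparison the lower share of members under that p thus lay inside CCGG. Averaged by promoter region, 0 of 2827 regions passed in any comparison (0.0% of 15892 regions in each), with 86, 190, 267 and 171 under an unadjusted p of 0.05 (backgrounds 6.94%, 9.38%, 23.8% and 5.12%).

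Those counts rested on DIO-HFD 1. That mouse was singled out by its levels in these same data, so the counts and p-values without it are a description and no independent test. Without it 307 members passed between CON-LFD and DIO-HFD (4.41% of members, 12.0% of all sites), 254 of them higher in CON-LFD (background 9.67%). Between DIO-LFD and DIO-HFD 419 passed (6.01%, background 14.6%), 333 of them higher in DIO-LFD (background 12.1%), and between DIO-VSG and DIO-HFD 931 passed (13.4%, background 34.4%), 738 of them higher in DIO-VSG (background 28.8%) and 193 lower (background 5.62%), all by limma with Benjamini-Hochberg adjustment. Between DIO-VSG and DIO-LFD, which that mouse enters only through the spread that all 4 groups share in the model, 0 passed (background 0.00457%). The regions that passed were 55, 72, 189 and 0 (backgrounds 10.5%, 12.5%, 29.2% and 0.0%). Most of the members that passed lay outside CCGG, with 296 of 307, 384 of 419 and 817 of 931. Of the members outside CCGG, 35.2% passed between DIO-VSG and DIO-HFD, and of those inside CCGG 2.45%.

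The 686 members outside CCGG that were higher in DIO-VSG in that fit averaged 22.2%, 26.7% and 25.5% in DIO-HFD 2 to 4 and 45.2% to 47.2% in DIO-VSG mice, but 49.8% in DIO-HFD 1. In CON-LFD mice they averaged 43.4%, 43.7% and 32.2%, and in DIO-LFD mice 47.2%, 35.4% and 39.4%. The 131 that were lower averaged 32.8%, 37.6% and 33.1% in DIO-HFD 2 to 4, 15.8% to 18% in DIO-VSG mice, and 16.7% in DIO-HFD 1. DIO-HFD 1 was therefore on the side of the DIO-VSG mice in both directions, and these averages, being over members chosen by the fit, are a description.

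The member that passed with all mice was the CCGG at -30 bp from the start (negative distances lie before it) in Ctnnb1, which encodes β-catenin, the effector of canonical Wnt signaling (chr9:120933370, mm10, in an intron of the gene at 120929216 to 120960507). Its level was 14.3%, 30.4% and 11.8% in CON-LFD and 27.6%, 19.3%, 19.7% and 13.5% in DIO-HFD mice, and 0.0% in all 3 DIO-LFD and all 4 DIO-VSG mice. The groups did not overlap, and 7 of 7 mice after weight loss were listed at 0. The difference in M was -4.67 against DIO-HFD for both (SE 0.39 and 0.36; limma with Benjamini-Hochberg adjustment, adjusted p = 0.00140 for DIO-LFD and 0.000349 for DIO-VSG), and with each mouse left out in turn the adjusted p stayed between 0.000243 and 0.0103, and between 0.000100 and 0.00329. The call was lost with a larger offset in M, with levels in place of M and with a trend in the variance. The other end of this fragment, 172 bp on, did not make up for it, since the mean sum was 53.8%.

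**Figure D5:**
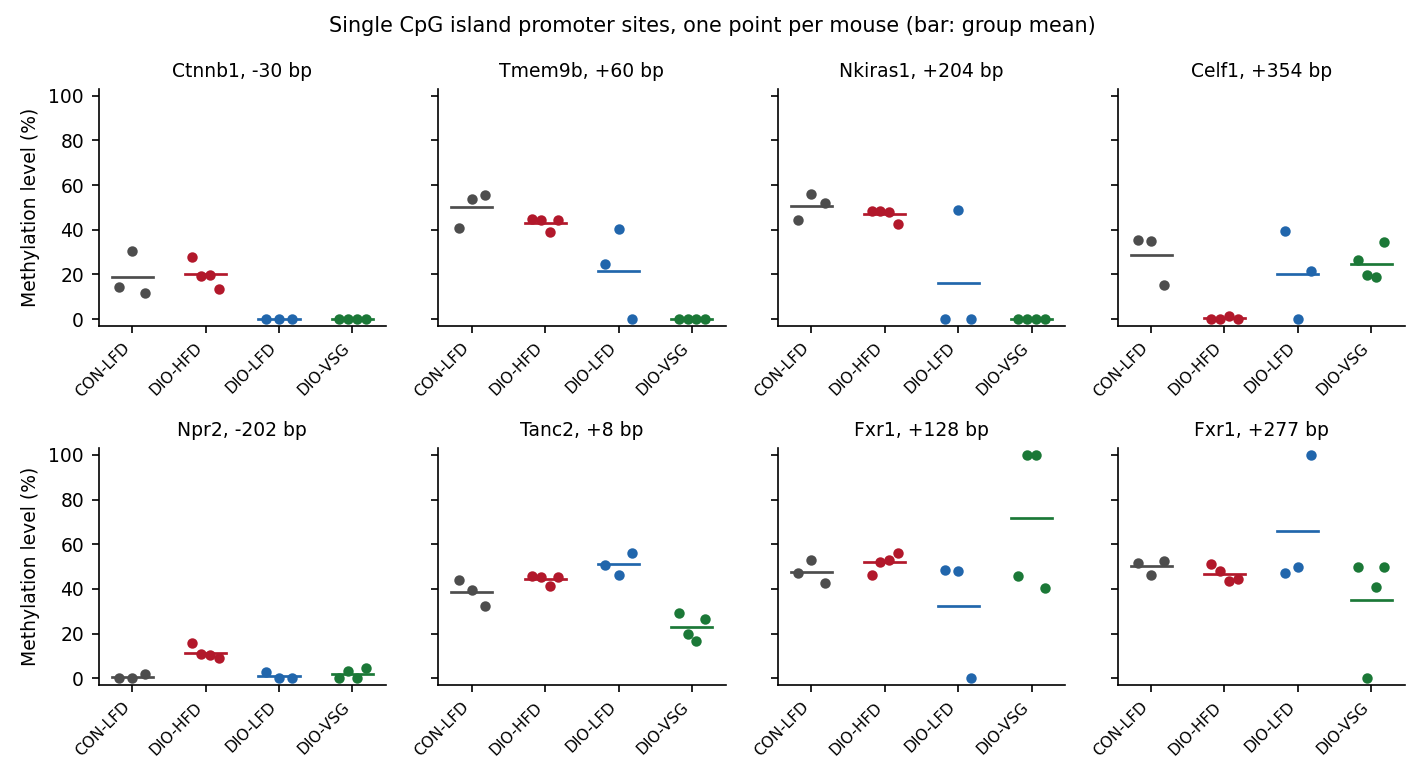
Level (percent) in each of the 14 mice at 8 CCGG members of Ctnnb1, Tmem9b, Nkiras1, Celf1, Npr2, Tanc2 and Fxr1 (2 sites), by group, with the distance from the start in bp. At the Ctnnb1 site the 7 mice that lost weight lie at 0, and at the 2 Fxr1 sites DIO-LFD 3 and DIO-VSG 2 lie at opposite ends of the scale.

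Other members separated the groups in every mouse but did not pass with all mice in the model. Tmem9b, which encodes a lysosomal transmembrane protein (chr7:109752220, 60 bp after the start, UTR), was at 44.7%, 44.4%, 38.8% and 44.3% in DIO-HFD and at 0.0% in all 4 DIO-VSG mice, with 24.4%, 40.3% and 0.0% in DIO-LFD and 40.7%, 53.9% and 55.6% in CON-LFD mice (M difference of DIO-VSG from DIO-HFD -6.26, SE 0.94; limma with Benjamini-Hochberg adjustment, adjusted p = 0.150). It passed without DIO-HFD 1 (limma with Benjamini-Hochberg adjustment, adjusted p = 0.00232), without DIO-LFD 2 (0.0245) and without DIO-LFD 3 (5.96e-06), and also with an offset of 0.1, with levels, with only the 2 groups and with a minimum SD of 0.1. Nkiras1, an inhibitor of NF-κB that binds IκB (chr14:18271338, 204 bp after the start, intronic), was at 48.5%, 48.4%, 47.8% and 42.7% in DIO-HFD and at 0.0% in all DIO-VSG mice, with 0.0%, 48.6% and 0.0% in DIO-LFD and 44.4%, 55.9% and 52% in CON-LFD mice (M difference -6.48, SE 1.08; limma with Benjamini-Hochberg adjustment, adjusted p = 0.150). It passed without DIO-HFD 1 (limma with Benjamini-Hochberg adjustment, adjusted p = 0.00341) and without DIO-LFD 2 (2.72e-07), and also with only the 2 groups and with a minimum SD of 0.1. DIO-LFD mice were split at both sites. They are not compared here and enter only through the spread that all 4 groups share in the model. Leaving out a DIO-LFD mouse that differs from its group lowers that spread. With each mouse left out in turn the adjusted p ran up to 0.331 for Tmem9b and 0.344 for Nkiras1 (limma with Benjamini-Hochberg adjustment).

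Celf1, a regulator of splicing and mRNA decay (chr2:90940895, 354 bp after the start, intronic), was at 0.0%, 0.0%, 1.3% and 0.0% in DIO-HFD and at 35.3%, 35% and 15.4% in CON-LFD mice (M difference 4.98, SE 1.06; limma with Benjamini-Hochberg adjustment, adjusted p = 0.611, 0.0275 without DIO-HFD 1 and 0.0157 without DIO-LFD 2). In DIO-LFD mice it was at 39.6%, 0.0% and 21.4% and in DIO-VSG mice at 26.6%, 19.8%, 18.6% and 34.4%, so that only DIO-LFD 2 among the other 10 mice was at the level of DIO-HFD. That mouse enters the comparison of CON-LFD with DIO-HFD only through the shared spread. With each mouse left out in turn the adjusted p at Celf1 ran up to 0.953 (limma with Benjamini-Hochberg adjustment). Npr2, the receptor of C-type natriuretic peptide (chr4:43631733, -202 bp from the start), was at 15.6%, 10.7%, 10.2% and 9.3% in DIO-HFD and at 4.7% or less in each of the other 10 mice (M difference of CON-LFD from DIO-HFD -3.30, SE 0.70; limma with Benjamini-Hochberg adjustment, adjusted p = 0.611, and 0.0276 without DIO-HFD 1). Gnas, the imprinted gene of the stimulatory G protein α subunit (chr2:174329311, -695 bp from the start, UTR, outside CCGG), was at 14.3%, 25%, 12.5% and 17.6% in DIO-HFD and at 0.0%, 5.9% and 0.0% in DIO-LFD mice (M difference -3.47, SE 0.66; limma with Benjamini-Hochberg adjustment, adjusted p = 0.430, 0.0143 without DIO-HFD 1 and 0.00610 without DIO-LFD 2). Its DIO-VSG mice lay between 3.0% and 8.7% and its CON-LFD mice between 5.6% and 15%.

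Between the 2 groups that lost weight, Tanc2, a postsynaptic scaffold gene (chr11:105589997, 8 bp after the start, UTR), was at 50.9%, 46.4% and 56.2% in DIO-LFD and at 29.4%, 20%, 16.7% and 26.5% in DIO-VSG mice (M difference of DIO-VSG from DIO-LFD -1.79, SE 0.32; limma with Benjamini-Hochberg adjustment, adjusted p = 0.393). CON-LFD and DIO-HFD mice lay between 32.3% and 45.9%, so the DIO-LFD mice were above and the DIO-VSG mice below all of them. A430027H14Rik (chr1:189343524, 95 bp after the start, exonic) was at 0.0% in all 3 DIO-LFD mice and at 4.9%, 16.0%, 17% and 3.1% in DIO-VSG mice (M difference 3.37, SE 0.52; limma with Benjamini-Hochberg adjustment, adjusted p = 0.165, and 0.0401 without DIO-VSG 4). Bcl7c (chr7:127708911, 23 bp after the start, UTR), a member of a family of chromatin remodeling subunits, was at 100% in all 3 DIO-LFD mice and between 71.2% and 96.6% in DIO-VSG mice (M difference -4.11, SE 0.89; limma with Benjamini-Hochberg adjustment, adjusted p = 0.781), and its other end was at 0.0% in the 3 DIO-LFD mice. Mllt10, a partner of the histone methyltransferase DOT1L, showed the like between DIO-LFD and DIO-HFD, with 100% in the 3 DIO-LFD mice against 75.4% to 91.9% (chr2:18064565, -71 bp from the start, intronic; limma with Benjamini-Hochberg adjustment, adjusted p = 0.437, and 0.0114 without DIO-HFD 1), and 0.0% at its other end in those 3.

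Among promoter regions with at least 3 tested members, Usp35, a deubiquitinase gene, stood lowest by p between DIO-VSG and DIO-HFD. Its mean was 24.3%, 29.2%, 39.1% and 36.9% in DIO-HFD and 20.3%, 20.6%, 22.2% and 18.8% in DIO-VSG mice over 10 sites (M difference -0.91, SE 0.22; limma with Benjamini-Hochberg adjustment, adjusted p = 0.160, and 0.00243 without DIO-HFD 1). Crmp1, a neuronal cytoskeletal regulator, was at 28.6% ± 2.62 in DIO-HFD and 35% ± 0.65 in DIO-VSG mice (SD, n = 4 each; limma with Benjamini-Hochberg adjustment over all regions, adjusted p = 0.160, and 0.00166 without DIO-HFD 1). In both regions the groups did not overlap, and DIO-HFD 1 was the DIO-HFD mouse closest to the DIO-VSG mice. In the other comparisons Map6, Sema4b, Fndc3b, C77080, Gm43573 and AA386476 came first, with adjusted p from 0.526 to 0.918 (limma with Benjamini-Hochberg adjustment). Of these, the 4 compared with DIO-HFD passed without DIO-HFD 1, with adjusted p of 0.0195, 0.0104, 0.0277 and 0.0324 (limma with Benjamini-Hochberg adjustment).

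Members were unevenly spread over genes. Of the 3524 symbols, 1349 (38.3%) had 1 member, the median was 2, 433 had at least 5 and 74 at least 10. Mir6991 had the most, 71 sites over chr19:7422102-7423549, followed by Gm44732 with 51, Mir1905 with 43, Fignl2 with 39, Gm9257 with 34 and Fam83g with 31. Such dense promoters were mostly outside CCGG, with 9 CCGG members in Mir6991, 4 in Mir1905 and 2 in Fignl2.

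In Mir1905 and Mir6991 the DIO-HFD mice fell apart. The mean over the 43 members of Mir1905, a microRNA gene on chromosome 3, was 46.4%, 48.9% and 29.3% in CON-LFD, 53.5%, 15.6%, 20.2% and 18.9% in DIO-HFD, 58.2%, 41.3% and 43.1% in DIO-LFD, and 52.4%, 52.6%, 47.2% and 48.7% in DIO-VSG mice. Mir6991 was at 62.8%, 65.5% and 43.3%, then 72.2%, 30.2%, 42% and 42.9%, then 72.5%, 44.8% and 54.7%, then 69.1%, 65.5%, 68.7% and 67.6% in the same order. In both, DIO-HFD 2 to 4 were low, DIO-HFD 1 was as high as the DIO-VSG mice, and CON-LFD 3 was the lowest of its group. With DIO-HFD 1 left out, 42 of 43 tested members of Mir1905 and 48 of 71 of Mir6991 passed as higher in DIO-VSG than in DIO-HFD (28.8% of all sites did).

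Hoxa5, a homeobox gene of anterior-posterior patterning that is also expressed in mammary epithelium and fat, was among the 3 genes of the developmental list with the most members (17 members, 2 inside CCGG, chr6:52203858-52204822). Its mean was 63.8%, 64.3% and 44.5% in CON-LFD, 68.1%, 27.4%, 43.9% and 38.3% in DIO-HFD, 69.4%, 52.5% and 56.3% in DIO-LFD, and 71.0%, 59.6%, 66.1% and 63% in DIO-VSG mice. With all mice 0 of its members passed, and without DIO-HFD 1, 16 of 17 passed as higher in DIO-VSG than in DIO-HFD (28.8% of all sites did). Fignl2, a homolog of the AAA ATPase fidgetin, went the other way, with 29.8%, 28.6% and 34.2% in CON-LFD, 27.6%, 40.4%, 47.8% and 43.8% in DIO-HFD, 28.7%, 35.9% and 32.1% in DIO-LFD, and 24.4%, 28.7%, 27.5% and 25.4% in DIO-VSG mice. Without DIO-HFD 1, 34 of its 38 tested members passed as lower in DIO-VSG (5.62% of all sites did). Snai1 and Nlgn2 were singled out after their values were seen. Snai1, the transcription factor of the epithelial-mesenchymal transition, was at 66.1% in DIO-HFD 1, at 41.4%, 35.8% and 36.2% in DIO-HFD 2 to 4, and at 64.2% to 68.8% in DIO-VSG mice. Nlgn2, a neuroligin, was at 17.6% in DIO-HFD 1, at 36.8%, 44.7% and 38% in DIO-HFD 2 to 4, and at 20.6% to 22.1% in DIO-VSG mice.

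Genes at both ends of the scale were read mostly outside CCGG. Among genes with at least 5 members the lowest means were 3.6% in Piezo2, a mechanosensitive channel, 6.4% in Nrg1, a ligand of ERBB receptors, 7.5% in Scmh1, 7.7% in 2410018L13Rik and 7.8% in Osbpl6. The highest were 80.7% in Syne4, which anchors the nucleus to kinesin, 81.9% in Tmem267, 82.4% in Gnaz, a G protein α subunit, 82.5% in Zfp579 and 84.2% in 1700020D05Rik. Each of these 10 genes had 0 or 1 CCGG member. In Gnaz the order of the 2 kinds was turned, with 69.8% at its CCGG and 85.6% at the other members.

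Most gene lists had lower medians outside than inside CCGG. Homeobox and other developmental transcription factor genes had 360 members in 96 genes, with a median of 16.5% outside and 50.7% inside CCGG. Imprinted genes had 85 members in 13 genes, of which 22.4% were inside CCGG, with medians of 28.1% and 56.7%. Wnt pathway genes (83 members in 35 genes) had 10.7% and 49.7%, tumor suppressor genes (49 in 18) 12.0% and 49.0%, and genes of DNA methylation and Polycomb (57 in 22) 26.4% and 49.7%. Ribosomal protein, respiratory chain and proteasome genes, which every cell uses, had 47 members in 30 genes, with 1.37% at the 2 members outside CCGG and 49.5% at the 45 inside. Over all members the medians were 20.2% and 49.7%. Germline genes (14 in 5) had 14.9% and 55.0%. The gap was smaller in the 13 mammary epithelial genes, with 38 members and medians of 41.6% and 54.7%, and absent in the 16 adipocyte and lipid metabolism genes, with 29 members, 6 of them outside CCGG, and medians of 48.3% and 46.1%.

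Single genes of the lists mostly had the CCGG member higher. Bmi1, a Polycomb subunit, had 89% at its CCGG member and a mean of 8.2% at the other 3. Cdkn2a, which encodes the cell cycle inhibitors p16 and p19, had 51.3% and 9.6%. Grb10, an imprinted inhibitor of insulin receptor signaling, had 47.8% and 9.1%, and Foxc2, a forkhead factor of lymphatic and adipose tissue, had 51.6% and 12.6%. Cldn4, an epithelial tight junction gene, was high in both, with 82.8% and 59.6%. The order was turned in Cebpb, with 45.8% inside and 48.4% outside CCGG, and in Ebf3, an early B cell factor that also acts in adipocytes, with 48.3% and 54.3%. Tdrd5, which acts in germ cells, had 13.7% and Dmrtb1, also a germ cell gene, had 84.9%, both without a CCGG member.

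Across the lists the site in Ctnnb1 was the 1 member that passed with all mice. Between DIO-VSG and DIO-HFD, 36 of the 237 tested members of the developmental list were higher and 3 lower at an unadjusted p under 0.05, where 20.2% of all tested sites were higher and 4.85% lower, with a median M difference of 0.15 against 0.06 over all members and 0.48 over all tested sites. For imprinted genes these were 9 and 7 of 77 (median 0.11), for Wnt genes 2 and 3 of 59 (-0.01), for DNA methylation and Polycomb genes 3 and 1 of 47 (0.10), for tumor suppressor genes 0 and 1 of 41 (-0.15), for mammary epithelial genes 0 and 0 of 23 (0.16), and for adipocyte genes 0 and 0 of 24 (-0.01). For germline genes 0 of 7 and for ribosomal, respiratory chain and proteasome genes 0 of 24 had such a p. The lymphocyte and macrophage list had 1 gene with a member, Ikzf1, so that it could not be read as a marker of those cells. Without DIO-HFD 1, 45 developmental members passed as higher in DIO-VSG and 3 as lower, with 9 and 7 imprinted, 4 and 0 mammary epithelial, 3 and 0 DNA methylation and Polycomb, and 1 and 1 Wnt members (limma with Benjamini-Hochberg adjustment, background 28.8% higher and 5.62% lower over all sites). For tumor suppressor, adipocyte, germline and ribosomal lists 0 passed. The lists share genes, 11 of them between Wnt and tumor suppressor genes, and whether their shares differ was not tested.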

How the data were processed

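RRBS was measured in 14 mice. The authors digested DNA with MspI, used Bismark for alignment to mm10, samtools for sorting and methylKit for methylation calls, and removed outlying mice and bases with low variability or extreme coverage. They deposited the level of each site in each mouse as a fraction, with no read counts. The paper gives an SD under 0.05 as its cut for low variability. Of the 75761 sites, 10151 had an SD under 0.05 over the 14 mice, so how that filter was applied to the table is not known. Whether bases at fragment ends were trimmed is not given in the sources used here. Of the columns, 0 belonged to another series. Groups came from the labels.

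Members were the rows flagged promoter and CpG island on autosomes. The members, gene lists and tests were chosen with earlier results of these data known. Fractions b were turned into M = log2((b + 0.01)/(1 − b + 0.01)) for the 65610 sites, of 75761, with an SD of at least 0.05, and fitted with limma 3.58.1 in R 4.3.3 as 1 model of 4 groups, with Benjamini-Hochberg adjustment over all tested sites and a threshold of 0.05. Regions were means of M over a gene's tested sites of 1 class. Means per mouse were compared by two-sided exact permutation tests and gaps within mice by exact sign flips, in Python 3.11.15 (NumPy 2.4.6, pandas 2.3.3, SciPy 1.17.1). CCGG contexts and sequences were read with pysam 0.24.0 from GRCm38.p6, which matches mm10, and figures were drawn with Matplotlib 3.10.9. The fit was tested on simulated data: between DIO-VSG and DIO-HFD, with 200 of 65610 sites changed by 4 in M, 162 were recovered with 11 false calls, and with 200 changed by 2, 56 with 2. For 200 of 15892 regions, 177 were recovered with 7 false calls at 4, and 120 with 4 at 2. Whether the fit does as well on the measured levels, where DIO-HFD 1 stood apart from its group, was not tested.

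Genes named were, per comparison, the members past the threshold or the 3 with the smallest p, the 2 regions with the smallest p among those with at least 3 tested members, the 6 genes with most members, the 5 highest and 5 lowest among genes with at least 5 members, the 3 genes of each list with most members, and Ctnnb1, Fxr1, Strip2 and Metap1. Of 46 members with no symbol or a date as symbol, 41 were named by their transcript. Alternatives were the offset of M (0.1), eBayes with trend and robust, the untransformed level, a model of the 2 groups alone, centring on the median M of each mouse, no SD filter or a minimum of 0.1, autosomes only, the replicate number as a block, means over genes, members inside CCGG only, and leaving out each mouse. Tests of sites outside CCGG and the alternatives of the gap between members inside and outside CCGG were chosen after seeing the data.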

Additional observations from a re-analysis of the deposited data

Results flagged for a closer look

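The distance of an extreme mouse from the next, as a share of the whole range among 4 mice, was read against 0.829, the critical value of Dixon's test. Of 50 groups tested over the named members and the means, 8 passed. For normal values the test flags about 1 in 20, or 2.5 of 50. Many of the named sites were chosen by their p in these data, and many levels lie at the ends of the scale. The 8 can therefore not be read against the 2.5. In DIO-HFD mice the ratio was 1.0 at the Celf1 site (chr2:90940895), where DIO-HFD 3 stood at 1.3% and the other 3 at 0.0%. It was 0.939 at the Tmem9b site (chr7:109752220), 0.886 at the Nkiras1 site (chr14:18271338) and 0.881 at the Tanc2 site (chr11:105589997), where 1 mouse lay below 3 that nearly coincided. In DIO-VSG mice it was 1.0 at the Mllt10 site (chr2:18064565), where DIO-VSG 4 stood at 96.3% and the others at 100%, and 1.0 at the Metap1 site (chr3:138489151), where DIO-VSG 2 stood at 2.3% and the others at 0.0%. It was 0.881 at the Gnas site (chr2:174329311) and 0.923 at the Ctnnb1 site chr9:120934129. In 3 of the 8, the other mice of the group were at exactly 0.0% or 100%.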

How the results depend on the processing

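The table holds no read counts, so a coverage minimum could not be varied, and levels of exactly 0% or 100% may rest on few reads. The groups share DIO-HFD mice, and at these group sizes the permutation tests cannot go far below 0.05. The gaps within mice kept their sign under every alternative run. Directions of the mean member level against DIO-HFD did not. CON-LFD minus DIO-HFD was -0.356 points as a mean over genes, -0.566 inside CCGG and -0.0202 with the replicate number as a block, and ran from -0.275 (without DIO-HFD 2) to 1.02 (without DIO-HFD 1) with each mouse left out. DIO-LFD minus DIO-HFD was -0.413 and -0.608 with the first 2 of these, and ran from -0.165 to 1.13 without each mouse. DIO-VSG minus DIO-HFD was -0.407 and -0.725, and DIO-VSG minus DIO-LFD was -0.117 inside CCGG. The gap to islands away from promoters between DIO-VSG and DIO-LFD ran from -1.59 to 0.0414, the latter without DIO-LFD 2.

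Member sites past the threshold between DIO-LFD and DIO-HFD were 0 with an offset of 0.1, with levels in place of M, with eBayes trend and robust, and outside CCGG, and 4 with only the 2 groups compared. Over all tested sites the counts were 0, 0, 0, 1 (of 46520) and 16 in the same order. Between DIO-VSG and DIO-HFD the member sites were 3 with the offset of 0.1, 3 with levels, 0 with trend and robust, 20 with only the 2 groups, 5 with a minimum SD of 0.1 and 0 outside CCGG, where the Ctnnb1 site is left out. Over all tested sites the counts were 4, 3, 0, 47, 5 (of 15066) and 0 (of 46520) in the same order. With each mouse left out in turn the member sites ran from 0 to 307, 1 to 419, 1 to 931 and 0 to 4 in the 4 comparisons, the highest without DIO-HFD 1 except the last, which was without DIO-LFD 3. Over all 65610 tested sites the counts ran from 0 to 7852, 1 to 9551, 2 to 22557 and 0 to 13. Member regions were 1 (DIO-LFD minus DIO-HFD, only the 2 groups), 1 (DIO-VSG minus DIO-HFD, levels) and 11 (the same, only the 2 groups), and ran from 0 to 55, 0 to 72, 0 to 189 and 0 to 2 with each mouse left out, the last without DIO-LFD 2. Of all regions, 10.5%, 12.5% and 29.2% passed against DIO-HFD without DIO-HFD 1. The counts of 1, 1 and 11, and the 2 without DIO-LFD 2, have no share over all regions beside them and are not read further. Except where the alternative tests fewer sites or mice, the cause of these changes was not tested. The site in Ctnnb1 kept its sign in all 23 alternatives of each comparison and lost its call in 3, the offset of 0.1, levels, and trend and robust.

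Same-numbered mice of different groups deviated together little or not at all (r of their deviations from -0.0804 to 0.202 and under 0.1 in 9 of 13 pairs). What the replicate numbers stand for is not known, and whether they mark a batch was not tested. With the replicate number as a block, 0, 1, 1 and 0 member sites passed, as without it.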
